A study of Mus musculus with 25 samples.

Results

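The unfolded protein response and the integrated stress response were followed through 10 genes, *Hspa5*, *Dnajb9*, *Creld2*, *Herpud1*, *Xbp1*, *Atf4*, *Ddit3*, *Trib3*, *Chac1* and *Asns*, in RNA sequencing of 25 mouse liver and liver tumor samples. The genes were chosen by symbol, and each symbol matched 1 Ensembl gene among the 48795 genes listed in the files. All 10 were among the 15625 genes that passed the filter on low counts. The study combined a carcinogen with a Western-style diet (WD) in male C57BL/6J mice, and a control diet (CD) served for comparison. Diethylnitrosamine (DEN), a carcinogen that hepatocytes activate, was injected into the peritoneum at 25 mg/kg when the mice were 2 weeks old. Mice that are called nonDEN were left untreated, diets began at weaning, and mice were culled at 36 weeks (the supplement to the study allows up to 39 weeks).

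Liver of nonDEN mice made up the groups nonDEN-L-CD (3 samples) and nonDEN-L-WD (4 samples). Liver of DEN mice on the control diet was DEN-L-CD (4 samples), in which tumors could be too small to separate from the liver around them. DEN mice on the Western diet gave peritumoral liver, DEN-PT-WD (8 samples), and tumor, DEN-T-WD (6 samples). Every tumor sample came from DEN mice on the Western diet. Against groups other than DEN-PT-WD, tumor thus differed in more than tissue. Diet differed too against DEN-L-CD, DEN against nonDEN-L-WD, and both against nonDEN-L-CD. The labels name the samples as replicates of a group but do not tie each to its own mouse, so p-values measure the spread between these samples.

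Secreted proteins fold in the endoplasmic reticulum (ER), and hepatocytes make them in large amounts. When unfolded proteins accumulate, the ER membrane sensors IRE1, ATF6 and PERK raise chaperones, degradation factors and folding enzymes, while protein synthesis is slowed. IRE1 splices *Xbp1* mRNA into the form that encodes an active transcription factor, and PERK phosphorylates eIF2alpha. Other kinases that sense missing amino acids, heme or viral RNA phosphorylate the same factor, which together is called the integrated stress response. Phosphorylated eIF2alpha favors translation of *Atf4*, so the activity of ATF4 is set largely by translation, and of XBP1 by splicing. Neither is visible in gene-level mRNA counts, which sum over spliced and unspliced *Xbp1*.

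Known binding motifs of these factors were searched near the start of each gene, in the window from 250 bases before to 50 bases after the start that RefSeq annotates (build GRCm38.p6, 32851 promoters, both strands). The ER stress response element (ERSE), bound by ATF6 and XBP1 with NF-Y, was spelled CCAAT, then 9 bases of any kind, then CCACG. It lay in the windows of *Hspa5* and *Creld2*, and in 0.119% of all windows. ERSE-II, spelled ATTGG, 1 base of any kind, then CCACG, lay in the window of *Herpud1* and in 0.0365% of all windows. The motif of ATF4 with a C/EBP partner (CARE), spelled TGATGNAA, lay in the windows of *Asns*, *Chac1*, *Herpud1* and *Trib3*, and in 3.97% of all windows. No 2 matches overlapped in these 10 windows, and a match is a string of letters, not a site at which binding was measured. *Dnajb9*, *Xbp1*, *Atf4* and *Ddit3* held none of these spellings in the window searched. The stretches below show the matches in capitals, 5′ to 3′ on the strand of the gene. *Hspa5* (chr2:34772019-34772048, plus strand) and *Asns* (chr6:7693214-7693243, minus strand) are shown as 30 bases, since they lie inside a longer Ensembl model of the gene. *Creld2* (chr15:88819496-88819645, plus strand), *Herpud1* (chr8:94386279-94386428, plus strand) and *Chac1* (chr2:119350992-119351091, plus strand) lie before the start.
Hspa5: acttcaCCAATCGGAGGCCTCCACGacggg
Creld2: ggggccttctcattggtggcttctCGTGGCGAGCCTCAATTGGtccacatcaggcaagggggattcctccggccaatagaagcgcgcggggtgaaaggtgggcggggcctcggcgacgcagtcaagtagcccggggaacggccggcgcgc
Herpud1: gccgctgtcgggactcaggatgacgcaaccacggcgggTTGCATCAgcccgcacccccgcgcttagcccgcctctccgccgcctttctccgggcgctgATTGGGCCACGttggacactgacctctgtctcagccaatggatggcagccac
Asns: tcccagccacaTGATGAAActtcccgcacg
Chac1: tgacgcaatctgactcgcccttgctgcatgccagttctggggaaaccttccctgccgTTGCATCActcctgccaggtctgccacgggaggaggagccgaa

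**Figure D1:**
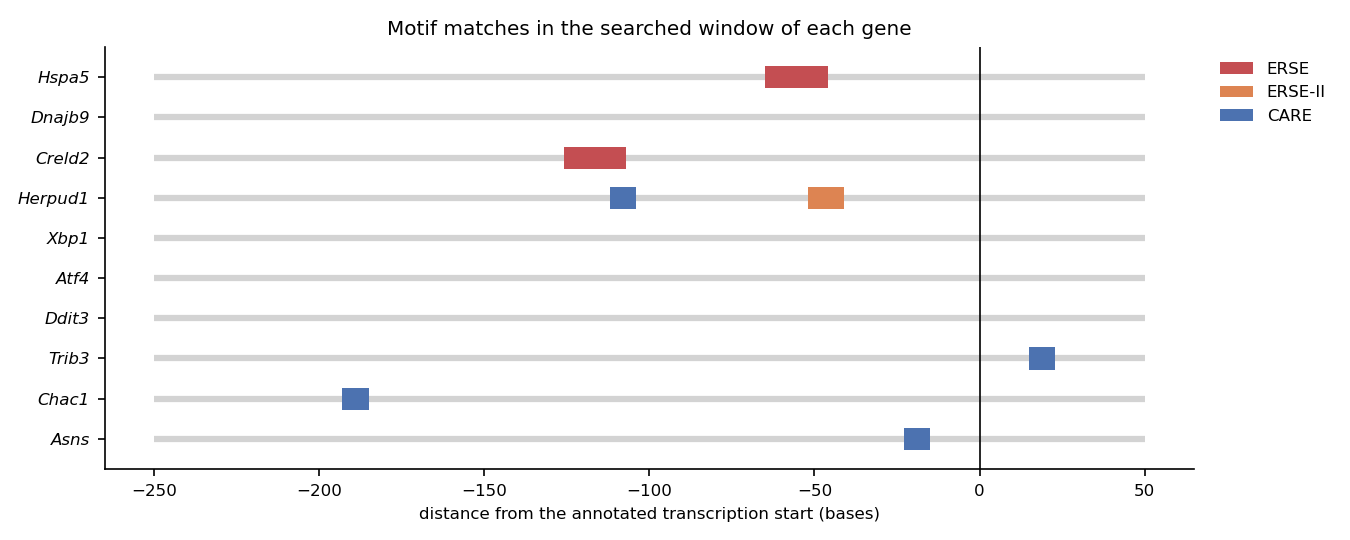
Horizontal position is the distance in bases from the annotated transcription start (vertical line) and each row is 1 of the 10 genes, with the searched window in grey and motif matches as colored blocks. ERSE matches stand at -65 to -47 in *Hspa5* and at -126 to -108 in *Creld2*, the ERSE-II match at -52 to -42 in *Herpud1*, and CARE matches in 4 genes, of which *Trib3* has its match at 15 to 22 bases after the start.

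The sequencing depth was 21530083 to 38074411 expected counts per sample (median 27610432), and the lowest count of any of the 10 genes in a library was 11. Hepatocyte markers were the most abundant of the cell type lists in every library. Tumor replicate 5 stood apart, with 21880 TPM (transcript abundance corrected for gene length and scaled to a fixed total) of the hepatocyte gene *Alb* against 82840 to 99740 in the other 5 tumors, and 6.95 TPM of the tumor marker *Gpc3* against 112.1 to 196.6. The summed level of 7 liver tumor markers did not set this library apart, at 707 TPM in a group range of 705 to 1029 TPM. Peritumoral replicates 3 and 4 held the most *Gpc3* of their group, 77.1 and 66.4 TPM, against 3.81 to 24.6 in the other 6. The summed level of 12 exocrine pancreas genes ran from 9.82 to 7271 TPM and exceeded 1000 TPM in 8 libraries, at least 1 in every group.

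Of the ER chaperones, *Hspa5* encodes BiP, the main chaperone of the ER lumen, which holds the sensors inactive and is released by unfolded proteins. The TPM of *Hspa5* came to 624, 1660 and 869 for the 3 libraries of nonDEN-L-CD and to 364, 442, 322 and 643 for the 4 of nonDEN-L-WD. The DEN-L-CD libraries held 368, 316, 330 and 371 TPM. *Hspa5* ran from 250 to 577 TPM in DEN-PT-WD (median 334) and from 307 to 1274 TPM in DEN-T-WD (median 792). Untreated liver on the control diet held the highest library of all, and its ranges met those of nonDEN-L-WD and of tumor but lay above DEN-L-CD and DEN-PT-WD. *Creld2*, a disulfide isomerase-like protein of the ER, had 111, 238 and 146 TPM in nonDEN-L-CD. Its other libraries held 18.1, 24.9, 14.6 and 50.8 TPM in nonDEN-L-WD and 25.8, 16.4, 24.8 and 22.5 TPM in DEN-L-CD. *Creld2* ran from 14.3 to 32.8 TPM in DEN-PT-WD (median 18.0) and from 34.3 to 63.4 TPM in DEN-T-WD (median 42.3). Every nonDEN-L-CD library was above every other library of the study for *Creld2*, and every tumor was above every peritumoral library. *Dnajb9*, a BiP co-chaperone also called ERdj4, had 34.4, 89.0 and 43.1 TPM in nonDEN-L-CD, 41.1 to 81.4 TPM in nonDEN-L-WD and 46.9 to 60.2 TPM in DEN-L-CD. It ran from 44.9 to 61.8 TPM in DEN-PT-WD (median 55.5) and from 74.5 to 156 TPM in DEN-T-WD (median 108), so the tumors were again above all peritumoral libraries.

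*Herpud1* encodes an ER membrane protein that helps assemble the machinery of ER-associated degradation. It was abundant in every group, with 266, 257 and 165 TPM in nonDEN-L-CD, 320, 300, 331 and 422 TPM in nonDEN-L-WD and 253 to 266 TPM in DEN-L-CD. Peritumoral libraries ran from 198 to 310 TPM (median 264) and tumors from 145 to 327 TPM (median 287). The nonDEN-L-WD libraries were above both control-diet groups, and tumor and peritumoral ranges overlapped. Group means of *Herpud1* lay between 229 and 343 TPM.

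Among the transcription factors, *Xbp1* had 127, 244 and 203 TPM in nonDEN-L-CD, 93.1, 145, 90.8 and 92.0 TPM in nonDEN-L-WD and 97.3 to 112 TPM in DEN-L-CD. Peritumoral libraries held 95.2 to 140 TPM (median 112.5) and tumors 130 to 239 TPM (median 208), with tumor replicate 5 alone inside the peritumoral range. *Atf4* stayed between 29.6 and 48.9 TPM in all 19 libraries that were not tumor, and tumors held 48.9 to 85.7 TPM (median 68.3). *Ddit3*, which encodes CHOP, a factor downstream of ATF4 linked to cell death under prolonged ER stress, was low in liver at 4.27 to 5.55 TPM in nonDEN-L-CD, 5.96 to 10.3 TPM in nonDEN-L-WD and 5.76 to 9.36 TPM in DEN-L-CD. DEN-PT-WD held 5.61 to 10.4 TPM of *Ddit3* (median 8.64) and DEN-T-WD 15.5 to 30.8 TPM (median 22.8). All 6 tumors were above all 19 other libraries for *Ddit3*. In the annotation used here, 6.13% of the exon bases of *Ddit3* are shared with a second gene entry of the same name and others lie opposite *Mars*, and 5.5% of the 50-base stretches of *Dnajb9* also occur in *Gm6568*. The use of strand in counting is not given in the sources used here, so reads of *Mars* over these bases cannot be told apart. Strand would not separate the second *Ddit3* entry, which is on the same strand, or the stretches shared with *Gm6568*.

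The downstream targets were low in liver. *Trib3*, a pseudokinase induced by ATF4 and CHOP that restrains AKT signaling, had 1.92, 1.84 and 0.82 TPM in nonDEN-L-CD, 2.49, 2.34, 3.77 and 1.65 TPM in nonDEN-L-WD, and 1.76, 2.01, 1.85 and 4.86 TPM in DEN-L-CD. It ran from 3.72 to 10.8 TPM in DEN-PT-WD (median 5.89) and from 12.2 to 41.6 TPM in DEN-T-WD (median 30.0). Tumors were above every other library, and peritumoral libraries were above every nonDEN-L-CD library. *Asns*, asparagine synthetase, had 6.13, 8.88 and 6.57 TPM in nonDEN-L-CD, 1.02, 1.54, 0.63 and 1.60 TPM in nonDEN-L-WD, and 2.39, 1.53, 3.73 and 3.06 TPM in DEN-L-CD. Peritumoral *Asns* ran from 1.79 to 10.1 TPM (median 2.55), where replicate 7 was the highest and the other 7 did not exceed 4.72 TPM, and tumors ran from 4.38 to 17.5 TPM (median 10.9). *Chac1*, an enzyme that degrades glutathione and a target of ATF4 and CHOP, stayed between 1.32 and 6.89 TPM in all libraries and its groups overlapped throughout.

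**Figure D2:**
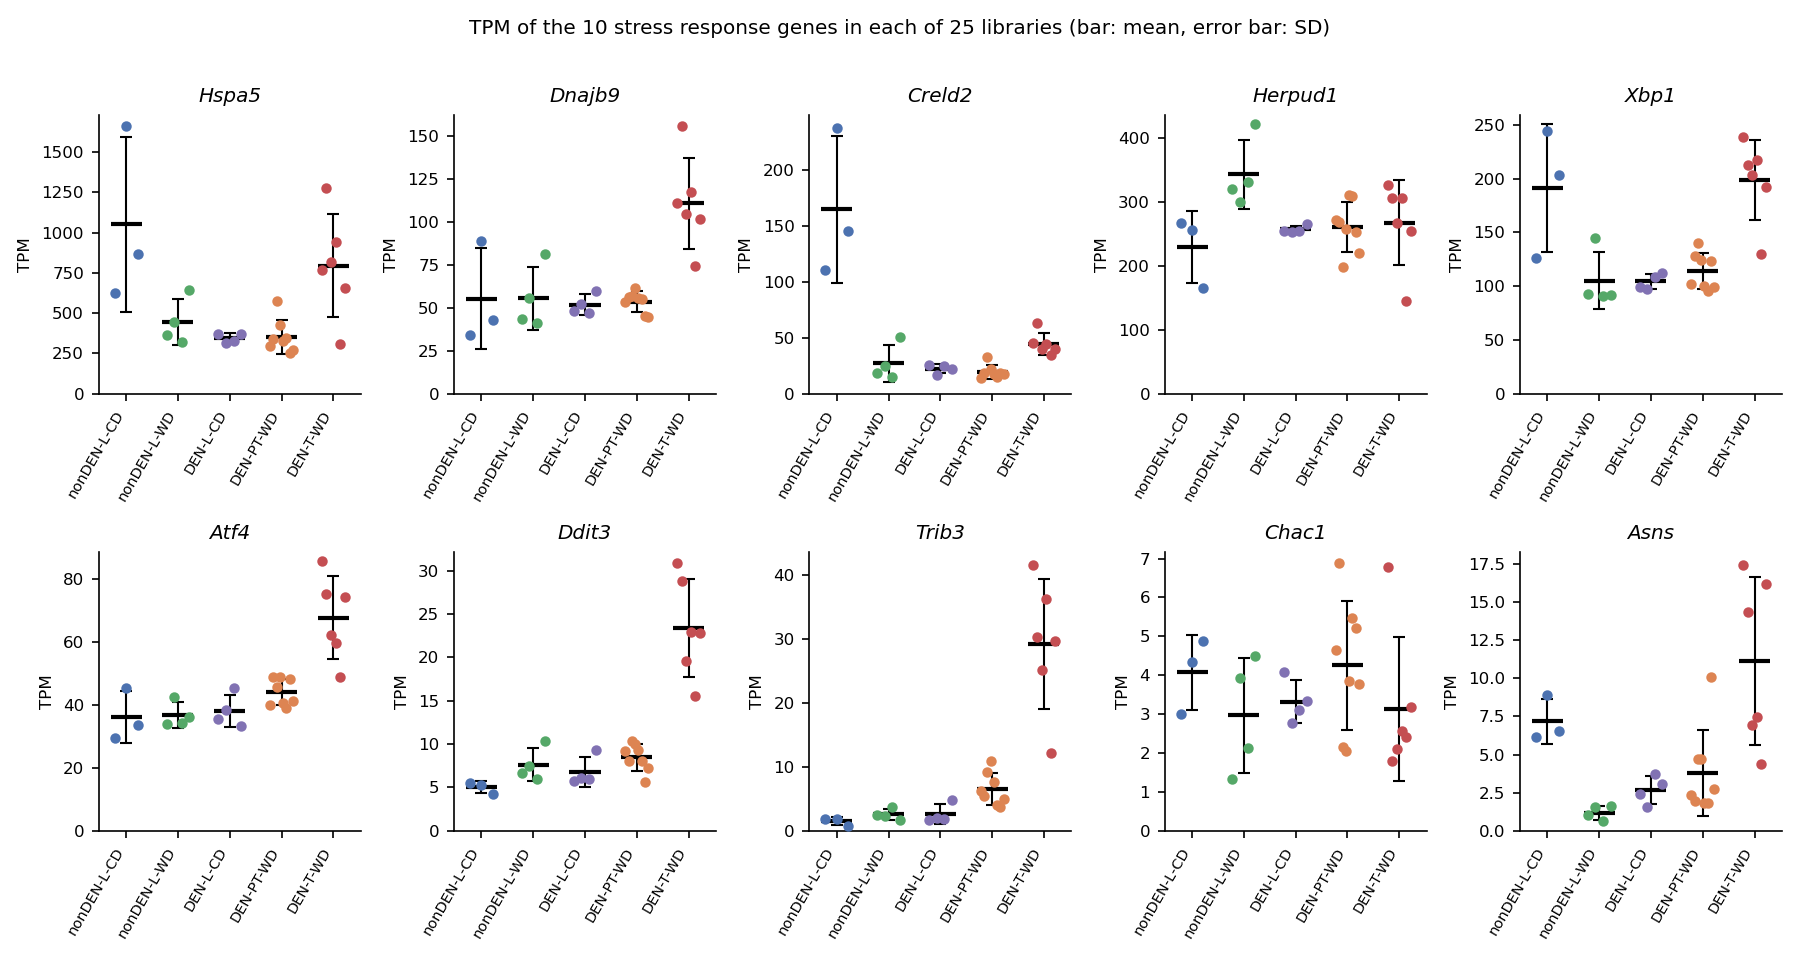
Each panel is 1 gene, each point the TPM of 1 library on a linear axis from 0, the horizontal bar the group mean and the error bar the SD, for nonDEN-L-CD (n = 3), nonDEN-L-WD (n = 4), DEN-L-CD (n = 4), DEN-PT-WD (n = 8) and DEN-T-WD (n = 6). *Hspa5*, *Creld2* and *Xbp1* have their highest means in nonDEN-L-CD and tumor, while *Ddit3* and *Trib3* have their highest mean in tumor (23.4 and 29.2 TPM) and their lowest in nonDEN-L-CD (5.05 and 1.53 TPM).

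Ordered by mean TPM, the 5 groups form 4 neighbouring pairs per gene, and 9 of those 40 pairs passed a threshold of 0.05 on the adjusted p (edgeR quasi-likelihood test on counts, adjusted over all genes tested). *Atf4*, *Ddit3* and *Trib3* had tumor first and passing against the next group, and the lower 4 groups of *Atf4*, *Ddit3* and *Trib3* showed no difference between neighbours past the threshold. *Dnajb9* also had tumor first, but its next groups, nonDEN-L-WD and nonDEN-L-CD, had nearly equal means (55.50 and 55.48 TPM), and tumor passed against the former (0.0373) and not the latter (0.0813). *Hspa5* and *Creld2* had nonDEN-L-CD first (adjusted p against tumor of 0.0388 and 2.99e-06). For *Xbp1* and *Asns*, nonDEN-L-CD and tumor led, with no difference between them past the threshold (0.0786 and 0.637), and the next group, DEN-PT-WD, was lower (3.96e-05 and 0.032). *Herpud1* had nonDEN-L-WD first, above tumor (0.0107). No neighbours of *Chac1* passed, with adjusted p from 0.242 to 0.64. Of all genes tested, the share that passed was 0.717% in DEN-L-CD against nonDEN-L-WD, 45.3% in DEN-PT-WD against nonDEN-L-CD, and 54%, 49% and 46.9% in tumor against nonDEN-L-CD, nonDEN-L-WD and DEN-L-CD. In pairs of tumor with nonDEN-L-CD, tissue, DEN and diet differ together. By normalized CPM, 3 of the 10 members had the same order of groups as by TPM.

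In untreated mice the Western diet went with lower levels of 4 of the 10 genes, in the comparison of nonDEN-L-WD with nonDEN-L-CD. *Creld2* was 27.1 ± 16.4 TPM on the Western diet against 165 ± 65.8 TPM on the control diet (SD, n = 4 and 3), a fall of 6.26-fold in the fitted counts. *Asns* fell 7.12-fold, *Hspa5* 2.49-fold and *Xbp1* 1.95-fold, while *Atf4*, *Ddit3*, *Trib3* and *Chac1* had log2 fold changes of -0.09 ± 0.16, 0.48 ± 0.26, 0.61 ± 0.46 and -0.54 ± 0.44 (SE) that did not pass. Among the 3 targets of ATF4 and CHOP, *Asns* thus passed and *Trib3* and *Chac1* did not. A gene passed at an adjusted p of at most 0.05 in edgeR's quasi-likelihood test, and was called if its log2 fold change was also at least 1 in size. Of all genes tested, 23.2% passed and 5.28% were called in this comparison, against 4 and 3 of the 10 members, and 12% passed on the lower side.

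The log2 fold changes of the members that passed were -2.65 ± 0.37 for *Creld2* (SE, adjusted p 3.98e-05 by edgeR), -2.83 ± 0.57 for *Asns* (0.00119), -1.31 ± 0.38 for *Hspa5* (0.0142) and -0.97 ± 0.20 for *Xbp1* (0.00157). TPM ranges of both groups were apart for *Creld2*, *Asns*, *Ddit3* and *Herpud1*, 4 of 10 members, as for 21.5% of all genes tested. The call of *Hspa5* rested on single libraries. Without nonDEN-L-CD replicate 2 its log2 fold change was -0.87 (adjusted p 0.155), and without nonDEN-L-WD replicate 3 it was -1.18 (0.0502). In whole tissue, fewer cells of a type and less RNA per cell cannot be told apart.

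Other ER chaperones and folding enzymes were lower in the same comparison. Of the 18 genes in that list 13 passed, all lower on the Western diet, and the median log2 fold change was -0.88 against 0.01 over all genes tested. *Sdf2l1*, a BiP cofactor (-1.54 ± 0.33, SE, adjusted p 0.00227), *Hyou1*, the nucleotide exchange factor of BiP (-1.53 ± 0.33, 0.00231), *Hsp90b1*, the ER form of HSP90 (-1.30 ± 0.24, 0.000515), and *Manf*, a secreted ER stress factor (-1.25 ± 0.36, 0.016), had the largest changes. Of 15 genes of ER-associated degradation and export, 7 fell and 1 rose, with *Derl3* (-2.28 ± 0.62, 0.0109) and *Syvn1*, the ubiquitin ligase HRD1 (-1.54 ± 0.29, 0.000653), called. The sensor list had 2 of 7 genes lower, *Ern1*, which encodes IRE1 alpha (-0.61 ± 0.18, 0.0176), and *Creb3l3* (-0.35 ± 0.12, 0.037). Over all lists 34 of 90 tested genes passed, where 23.2% of all genes passed and 12% passed on the lower side. Without nonDEN-L-CD replicate 2 the list count was 21, and genes passing over all genes fell from 3626 of 15625 to 1889 of 16004. The lists were drawn up with results of the same data known, so their counts describe and do not test.

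The lists tied to ATF4 had genes passing in both directions with the diet, where 23.2% of all genes passed. Of 22 ATF4 targets in amino acid supply 4 fell and 1 rose, and only *Psph*, the last enzyme of serine synthesis, was called (-1.49 ± 0.20, SE, edgeR adjusted p 2.54e-05). Among 12 tested secreted and regulatory ATF4 targets 1 rose and 1 fell. *Vldlr*, the very low density lipoprotein receptor, rose by 2.96 ± 0.60 on the log2 scale (0.00134) from 0.287 to 1.66 TPM, and *Eif4ebp1*, a repressor of cap-dependent translation, fell by 0.36 ± 0.13 (0.041). Of 8 stress response transcription factors, *Cebpg*, a partner of ATF4 (-0.83 ± 0.18, 0.00205), and *Cebpb* fell and *Nfe2l2* rose (0.51 ± 0.15, 0.0178). Of 8 genes for eIF2alpha and its kinases and phosphatase, *Eif2s1*, which encodes eIF2alpha itself, passed (-0.36 ± 0.10, 0.0115).

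DEN on the control diet went with lower levels of 3 of the 10 genes. In DEN-L-CD against nonDEN-L-CD, *Creld2* fell 7.50-fold, *Hspa5* 3.07-fold and *Xbp1* 1.85-fold, and *Asns* was at 2.68 ± 0.94 TPM against 7.19 ± 1.48 TPM (SD, n = 4 and 3) without passing. This comparison uses the same 3 nonDEN-L-CD samples as the one above, so the comparisons are not independent of each other. In edgeR's test 3 of the 10 members passed and 2 were called, against 21.3% and 4.7% of all genes, and 12.2% passed on the lower side. Log2 fold changes were -2.91 ± 0.38 for *Creld2* (SE, adjusted p 1.89e-05), -1.62 ± 0.38 for *Hspa5* (0.00399), -0.89 ± 0.20 for *Xbp1* (0.00306) and -1.37 ± 0.53 for *Asns* (0.0699). For *Hspa5*, *Creld2*, *Xbp1*, *Ddit3* and *Asns* the TPM ranges were apart, 5 of 10 members, as for 28.4% of all genes. Without nonDEN-L-CD replicate 2, *Hspa5* had a log2 fold change of -1.18 (adjusted p 0.0571) and the number called fell from 2 to 1. *Asns* passed under DESeq2's Wald test (0.0487) and in a fit of only these groups (0.00685).

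The chaperone list again had its passing genes on the low side, 11 of 18, with a median of -0.71 against 0.02 over all genes. *Hyou1* (-2.09 ± 0.34, SE, edgeR adjusted p 0.000168), *Manf* (-1.62 ± 0.37, 0.00313), *Sdf2l1* (-1.61 ± 0.33, 0.00166) and *Pdia4*, a protein disulfide isomerase (-1.12 ± 0.23, 0.00132), had the largest changes. Of the degradation and export list 6 genes fell and 1 rose, with *Syvn1* called (-2.03 ± 0.29, 5.04e-05). Sensor genes passed on the low side in 4 of 7 cases, among them *Atf6b* (-0.52 ± 0.10, 0.000576) and *Creb3l3* (-0.46 ± 0.12, 0.00858). *Psph* was the only called gene among the ATF4 targets in amino acid supply (-1.31 ± 0.20, 9.76e-05), of which 5 of 22 fell. *Vldlr* rose by 1.71 ± 0.60 (0.0452). *Cebpb* (-0.80 ± 0.17, 0.00175) and *Cebpg* (-0.76 ± 0.18, 0.004) fell, and none of the eIF2alpha list passed. Over all lists 31 of 90 genes passed, where 21.3% of all genes passed and 12.2% passed on the lower side. Without nonDEN-L-CD replicate 2 the list count was 20, and genes passing over all genes fell from 3327 of 15625 to 1734 of 16004.

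Some clock genes also passed in these comparisons, 3 of 12 in each, a share near the 23.2% and 21.3% of all genes. *Arntl*, which encodes the clock activator BMAL1, had 1.40, 3.64 and 1.75 TPM in nonDEN-L-CD against 0.54 to 0.89 TPM in nonDEN-L-WD and 0.50 to 0.71 TPM in DEN-L-CD. Its log2 fold changes were -1.88 ± 0.40 and -1.95 ± 0.40 (SE, edgeR adjusted p 0.0018 and 0.00145). *Per3*, a clock repressor, was 1.18 ± 0.27 and 1.19 ± 0.27 higher (0.00349 and 0.00335), and *Clock*, the partner of BMAL1, was 0.63 and 0.81 lower on the log2 scale. Within nonDEN-L-CD, replicate 2 was highest for *Arntl*, *Hspa5*, *Creld2* and *Xbp1*, and the time of day of collection is not given in the sources used here. The part of clock phase in the chaperone values was not tested. Summed exocrine pancreas genes were 1376, 10.4 and 548 TPM in nonDEN-L-CD replicates 1, 2 and 3, so the library with the most *Hspa5* had the least pancreas RNA of its group. Summed bile duct markers were 32.4 to 39.1 TPM in nonDEN-L-CD, below the 45.2 to 68.6 TPM of nonDEN-L-WD and the 39.9 to 66.0 TPM of DEN-L-CD, and their part in the result was not tested. The 8 libraries over 1000 TPM included nonDEN-L-CD replicate 1, nonDEN-L-WD replicates 1 and 4, and DEN-L-CD replicate 3. Without the 8, *Hspa5* was -1.91 and -1.83 on the log2 scale in nonDEN-L-WD and DEN-L-CD against nonDEN-L-CD (edgeR adjusted p 0.0242 and 0.0156). *Creld2* was -3.46 and -3.15 (8.39e-05 and 5.75e-05). The part of pancreas RNA in these values was not tested.

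**Figure D3:**
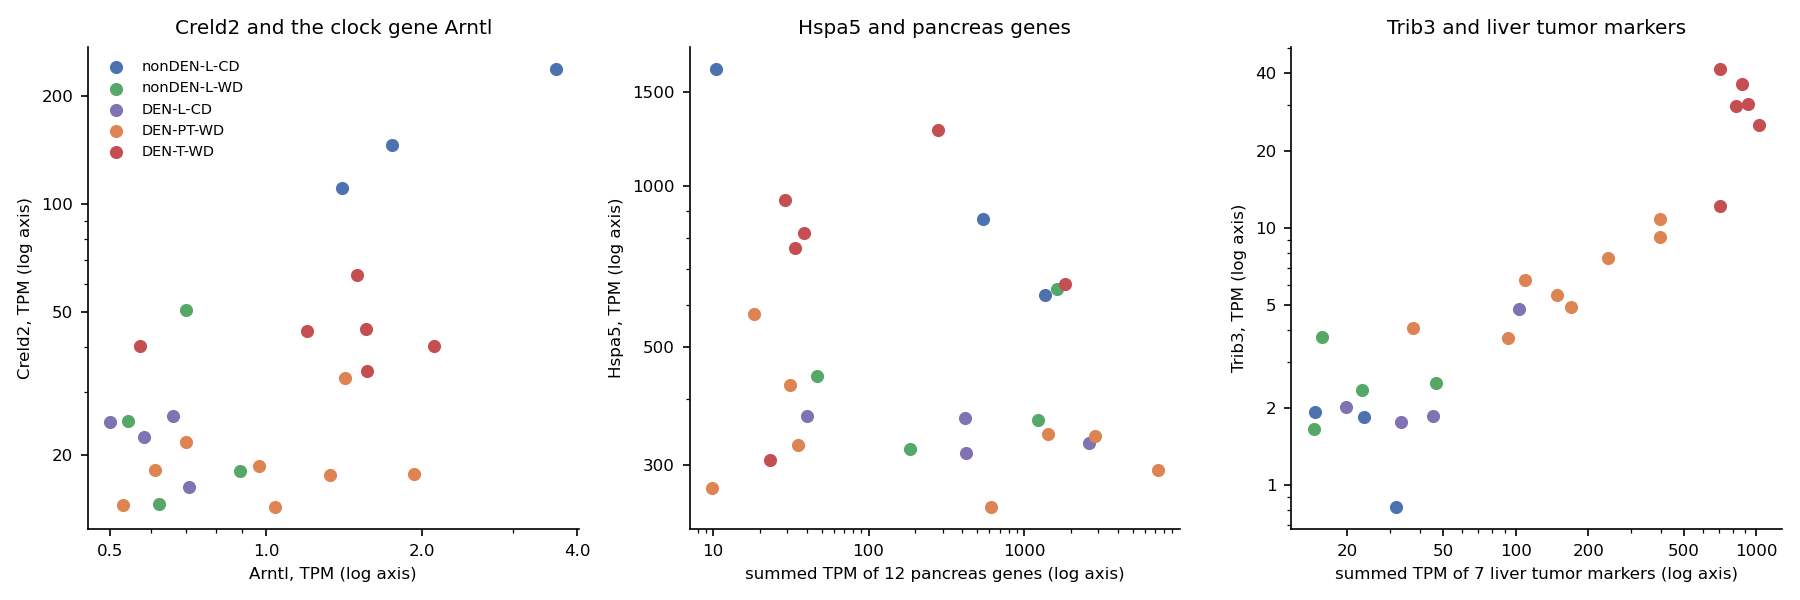
Each point is 1 of the 25 libraries, colored by group, on log axes. Left, *Creld2* against *Arntl* in TPM, where the 3 nonDEN-L-CD libraries are highest for *Creld2*. Middle, *Hspa5* in TPM against the summed TPM of 12 exocrine pancreas genes, where the library with the most *Hspa5* (1660 TPM) is among the lowest in pancreas genes (10.4 TPM). Right, *Trib3* in TPM against the summed TPM of 7 liver tumor markers, where tumor libraries are highest in both.

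Peritumoral liver was compared with untreated liver on the same Western diet, DEN-PT-WD against nonDEN-L-WD. *Asns* was 3.78 ± 2.83 TPM against 1.20 ± 0.46 TPM (SD, n = 8 and 4), 3.09-fold higher in the fitted counts, and *Trib3* was 6.53 ± 2.53 TPM against 2.56 ± 0.88 TPM, 2.15-fold higher. *Herpud1* was 261 ± 39.3 TPM against 343 ± 54.3 TPM, 1.48-fold lower. In edgeR's test 3 of the 10 members passed and 2 were called, against 12.4% and 2.76% of all genes, with 7.5% passing higher and 4.87% lower. Log2 fold changes were 1.63 ± 0.49 for *Asns* (SE, adjusted p 0.0338), 1.10 ± 0.35 for *Trib3* (0.0436) and -0.57 ± 0.19 for *Herpud1* (0.0469). Only the ranges of *Asns* were apart, 1 of 10 members, where 9.97% of all genes had ranges apart. *Hspa5* (-0.59 ± 0.30, 0.185) and *Creld2* (-0.77 ± 0.29, 0.08) did not pass.

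The adjusted p of all 3 lay near the threshold and crossed it when single libraries were left out. *Asns* no longer passed without nonDEN-L-WD replicate 1, 2, 3 or 4, or without DEN-PT-WD replicate 3, 4 or 7, with adjusted p up to 0.104 and log2 fold changes from 1.27 (without DEN-PT-WD replicate 7) to 1.96. *Trib3* did not pass without nonDEN-L-WD replicate 1, 2 or 4, or DEN-PT-WD replicate 2, 3, 4, 5 or 8, with adjusted p up to 0.142 and log2 fold changes from 0.96 to 1.14. *Herpud1*, which passed below the fold threshold, did not pass without nonDEN-L-WD replicate 1, 3 or 4, or DEN-PT-WD replicate 1, 2, 3, 4, 5, 7 or 8, with log2 fold changes from -0.63 to -0.35 (adjusted p 0.277 without nonDEN-L-WD replicate 4). *Creld2* passed without nonDEN-L-WD replicate 3 (-0.99, 0.0422) or DEN-PT-WD replicate 3 (-0.92, 0.0415). Peritumoral replicates 3 and 4, which had the most tumor marker RNA, also had the most *Trib3* of their group, 9.24 and 10.8 TPM. With both left out, *Trib3* was 0.80 ± 0.34 (adjusted p 0.149), *Asns* 1.50 ± 0.52 (0.086) and *Herpud1* -0.52 ± 0.20 (0.123), while *Creld2* passed (-0.98 ± 0.29, 0.0493). The 8 libraries rich in pancreas genes included nonDEN-L-WD replicates 1 and 4 and DEN-PT-WD replicates 1, 2 and 6. With the 8 left out, 0 of the 10 passed, and *Asns* was 2.48 ± 0.73 (0.0834). Genes passing over all genes then fell from 1933 of 15625 to 336 of 15750. Cell markers differed too, and their part in these values was not tested. Summed levels in DEN-PT-WD and nonDEN-L-WD were 72.7 to 325 and 45.2 to 68.6 TPM for 5 bile duct markers, and 134 to 170 and 82.7 to 129 TPM for 6 endothelial markers, so these ranges were apart. They overlapped for 7 markers of stellate cells and fibroblasts (229 to 449 and 141 to 232 TPM) and for 7 of leukocytes (149 to 346 and 85.5 to 211 TPM).

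Of the pathway lists, the ATF4 targets in amino acid supply had 2 genes higher and 2 lower of 22, with *Psat1*, a serine synthesis enzyme, called (2.09 ± 0.63, SE, edgeR adjusted p 0.034). *Tnfrsf10b*, the death receptor DR5, was called among the regulatory targets (1.81 ± 0.41, 0.00839), from 0.193 to 0.773 TPM, and *Bcl2l11*, a pro-apoptotic BCL2 relative, rose by 0.71 ± 0.16 (0.00691). Chaperones had 2 of 18 genes lower, *Hyou1* (-0.81 ± 0.26, 0.0433) and *Ero1lb* (-0.49 ± 0.15, 0.0349). Degradation and export genes had 3 lower and 1 higher of 15, with *Syvn1* at -0.83 ± 0.23 (0.0204) and *Erlec1* at 0.21 ± 0.06 (0.0283). *Cebpb* fell by 0.50 ± 0.13 (0.0181). *Eif2ak4*, the amino acid sensing kinase GCN2, rose by 0.20 ± 0.06 (0.0364), and among the sensors *Creb3l3* (-0.36 ± 0.10, 0.0184) and *Atf6* (-0.28 ± 0.08, 0.0265) fell. Over all lists 16 of 90 genes passed, where 12.4% of all genes passed. The list count was 8, 10 and 3 without nonDEN-L-WD replicate 1, 3 and 4, and 10 without DEN-PT-WD replicate 8. Genes passing over all genes were 1933 with all samples and 1022, 1218, 655 and 1355 in these fits.

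In DEN-treated mice no member passed between peritumoral liver on the Western diet and liver on the control diet, DEN-PT-WD against DEN-L-CD. In edgeR's test 0 of the 10 members passed, and 0 were called, against 10.6% and 1.9% of all genes, and at an unadjusted p under 0.05 there was 1 member, *Trib3* (p 0.0105). DESeq2's Wald test (adjusted p 0.0337) and limma on log2(TPM + 1) (0.00665) passed *Trib3*, and a fit of only these groups passed *Herpud1* (-0.35 ± 0.11, 0.0465), whose sign turned with limma on log2(TPM + 1) (0.0074, 0.975) and whose mean was 261 TPM against 257 TPM. The level of *Trib3* was 6.53 ± 2.53 TPM against 2.62 ± 1.50 TPM (SD, n = 8 and 4), with a log2 fold change of 0.99 ± 0.36 (SE, adjusted p 0.073). *Trib3* passed without DEN-L-CD replicate 4, which held 4.86 TPM where the other 3 libraries held 1.76 to 2.01 (log2 fold change 1.46, adjusted p 0.0279), and without DEN-PT-WD replicate 7 (1.08, 0.0498). DEN-L-CD replicate 4 also held the most tumor marker RNA of its group, 103 TPM against 19.7 to 45.5 TPM, whose part in the result was not tested. The TPM ranges of 0 of 10 members were apart, as against 21.3% of all genes. The other 9 log2 fold changes lay between -0.51 ± 0.29 (*Creld2*) and 0.16 ± 0.44 (*Asns*).

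Of 90 tested pathway genes 3 were higher and 3 lower, where 10.6% of all genes passed. *Vldlr* was called (1.46 ± 0.44, SE, edgeR adjusted p 0.0357), and *Sesn2*, an ATF4 and p53 target that restrains mTORC1, rose by 0.60 ± 0.15 (0.0122). *Atf6b* rose by 0.27 ± 0.08 (0.0294), while *Aars* (-0.29 ± 0.07, 0.0117), *Derl2* (-0.27 ± 0.09, 0.0475) and *Vegfa* (-0.34 ± 0.09, 0.0249) passed on the lower side of the TMM-scaled counts. By mean TPM, *Aars* (49.8 against 46.5) and *Derl2* (80.8 against 79.7) were not lower, so their direction depended on the scaling. The 6 genes became 1 without DEN-L-CD replicate 3, 3 without DEN-PT-WD replicate 5, and 10 without DEN-PT-WD replicate 6 or 7. Genes passing over all genes were 1650 with all samples and 743, 1220, 2230 and 1816 in these fits. Summed markers of these groups were apart, DEN-PT-WD above DEN-L-CD, for bile duct (72.7 to 325 and 39.9 to 66.0 TPM), endothelium (134 to 170 and 101 to 113 TPM) and stellate cells and fibroblasts (229 to 449 and 153 to 190 TPM). Their part in these values, and in the interaction that uses the same groups, was not tested.

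Tumors were compared with peritumoral liver of DEN mice on the Western diet, DEN-T-WD against DEN-PT-WD, and 8 of the 10 genes were higher in tumor. *Trib3* rose 4.17-fold, to 29.2 ± 10.1 TPM from 6.53 ± 2.53 TPM (SD, n = 6 and 8), *Asns* 2.82-fold to 11.1 ± 5.52 TPM, and *Ddit3* 2.52-fold to 23.4 ± 5.68 TPM. The chaperones *Creld2*, *Hspa5* and *Dnajb9* rose 2.09-, 2.08- and 1.90-fold, and the factors *Xbp1* and *Atf4* 1.60- and 1.40-fold. *Herpud1* and *Chac1* did not pass, with log2 fold changes of -0.07 ± 0.17 and -0.59 ± 0.32 (SE). In edgeR's test 8 members passed and 5 were called, against 37.7% and 7.9% of all genes. Of all genes 19.5% passed on the higher side.

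Log2 fold changes of the called members were 2.06 ± 0.28 for *Trib3* (SE, adjusted p 9.07e-06), 1.50 ± 0.37 for *Asns* (0.00286), 1.33 ± 0.17 for *Ddit3* (4.52e-06), 1.06 ± 0.26 for *Creld2* (0.00249) and 1.06 ± 0.27 for *Hspa5* (0.00312). *Dnajb9* (0.92 ± 0.19, 0.000704), *Xbp1* (0.67 ± 0.14, 0.000705) and *Atf4* (0.49 ± 0.11, 0.00143) passed below the fold threshold. The TPM ranges of tumor and peritumoral liver were apart for *Trib3*, *Ddit3*, *Creld2* and *Dnajb9*, 4 of 10 members, as for 10.4% of all genes. Tumor replicate 5, the library with least *Alb*, was the lowest tumor for *Hspa5*, *Dnajb9*, *Creld2*, *Herpud1*, *Xbp1*, *Atf4*, *Ddit3*, *Trib3* and *Asns*. With any 1 tumor or peritumoral library left out, the same 8 members passed each time. Without tumor replicate 1, which held 6.77 TPM of *Chac1* against 1.79 to 3.17 in the other 5, *Chac1* was lower in tumor (-0.94, adjusted p 0.0198). Without tumor replicate 2 the number called fell from 5 to 3.

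With the 8 pancreas-rich libraries left out, 3 peritumoral and 1 tumor among them, *Asns* was 1.02 ± 0.44 higher on the log2 scale and no longer passed (edgeR adjusted p 0.113). The other 7 genes still passed, with *Hspa5* at 0.0333 and *Trib3* at 0.00322, and 3 members were called. With peritumoral replicates 3 and 4 left out, *Chac1* was lower in tumor (-0.82 ± 0.31, 0.0418) and the 8 genes still passed. Tumors differed from peritumoral liver in cell markers too. Summed hepatocyte markers were 31680 TPM in tumor replicate 5 and 110200 to 130000 TPM in the other 5 tumors, which were all above the 45270 to 72090 TPM of peritumoral liver. Summed bile duct markers, of which *Spp1* belongs to the list, were 385 to 833 TPM against 72.7 to 325 TPM. Leukocyte markers overlapped, at 178 to 484 TPM against 149 to 346 TPM. The part of these cell types in the members' values was not tested.

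**Figure D4:**
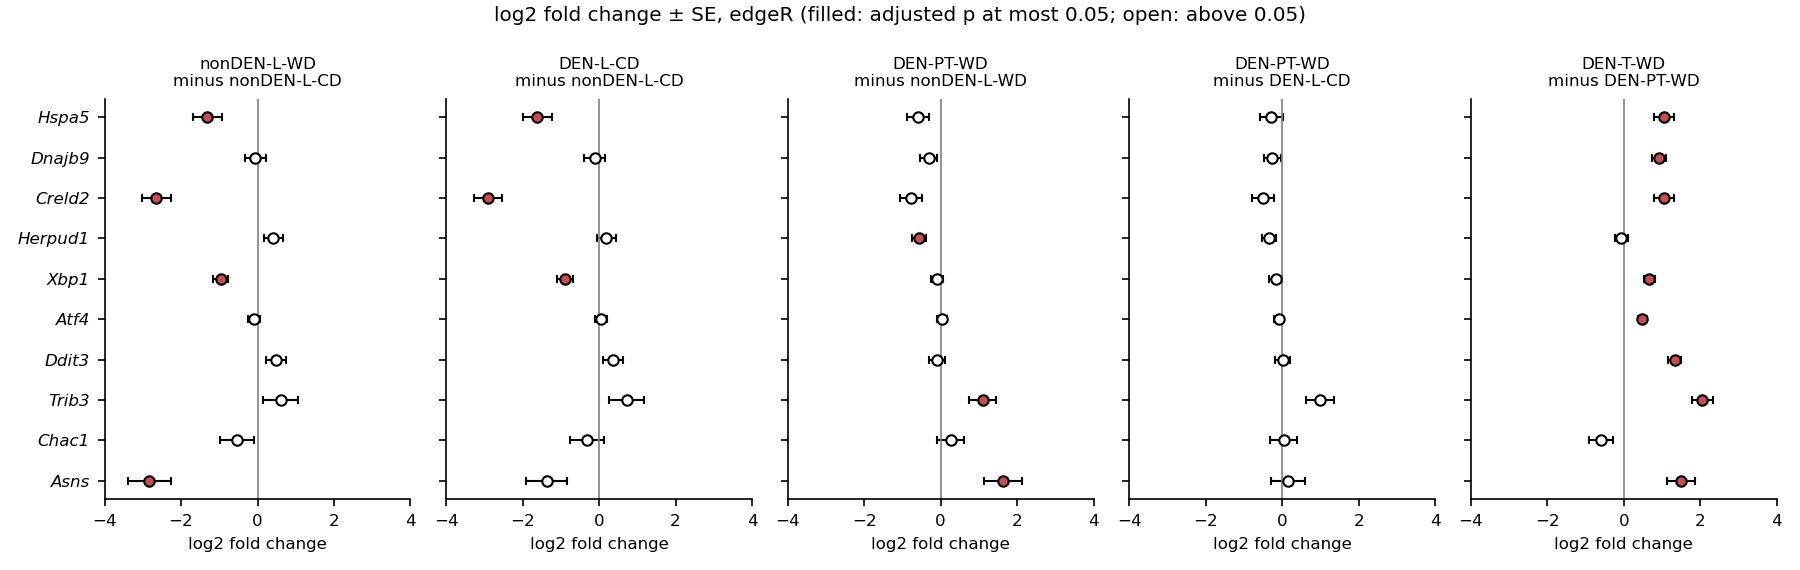
Points are log2 fold changes of the 10 genes in 5 comparisons, with the first named group minus the second, and error bars are SE from edgeR, with filled points at an adjusted p of at most 0.05. *Creld2* and *Hspa5* lie left of 0 in both comparisons against nonDEN-L-CD (*Creld2* -2.65 and -2.91), and 8 genes lie right of 0 and filled in the comparison of tumor with peritumoral liver.

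Genes of the wider pathway lists also passed in tumor. Of 90 tested genes in the lists, 46 passed higher in tumor and 6 lower, with a median log2 fold change of 0.28 against 0.01 over all genes, of which 37.7% passed. Chaperones and folding enzymes had 12 of 18 genes higher and none lower, with *Manf* called (1.05 ± 0.26, SE, edgeR adjusted p 0.00253). Degradation and export genes had 9 of 15 higher and none lower, with *Ssr3* (0.42 ± 0.08, 0.000169) and *Derl1* (0.51 ± 0.10, 0.000351) at the smallest adjusted p. Of the sensors *Ern1* (0.71 ± 0.13, 0.000161) and *Eif2ak3*, which encodes PERK (0.54 ± 0.14, 0.004), rose, among 3 of 7 that passed. In the eIF2alpha list 2 genes rose, among them *Eif2ak4* (0.24 ± 0.05, 0.00131), and *Eif2ak1*, the heme-regulated kinase, fell by 0.22 ± 0.05 (0.000717). *Atf3* (0.93 ± 0.26, 0.00739) and *Atf5* (0.58 ± 0.17, 0.0094) rose, while *Cebpb* (-0.63 ± 0.12, 0.000337) and *Cebpd* (-0.62 ± 0.19, 0.0152) fell.

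Among the ATF4 targets in amino acid supply, of 22 genes 13 rose and 3 fell. *Slc7a11*, the cystine transporter subunit xCT (4.25 ± 0.90, SE, edgeR adjusted p 0.000749), ran from 1.25 to 134 TPM in tumor with a median of 3.92 TPM, and from 0.35 to 2.02 TPM in peritumoral liver. The mean in tumor was 25.2 ± 53.5 TPM (SD, n = 6), so 1 library set that mean and the ranges overlapped. The serine and proline synthesis genes *Psat1* (2.25 ± 0.46, 0.000565), *Pycr1* (2.03 ± 0.45, 0.0011) and *Phgdh* (1.96 ± 0.45, 0.00145) rose, and *Psat1* was 20.6 ± 7.65 TPM in tumor against 4.25 ± 2.63 TPM. *Cth*, which makes cysteine, fell by 0.78 ± 0.23 (0.0119), as did *Shmt2* and *Aars*, so genes of the list passed in both directions. Among the secreted and regulatory targets 5 of 12 rose. *Tnfrsf10b* (2.00 ± 0.30, 2.54e-05) was 2.75 to 4.15 TPM in tumor against 0.35 to 1.48 TPM, and *Fgf21*, a secreted hepatocyte hormone (1.72 ± 0.34, 0.000432), was 19.8 ± 11.8 TPM against 5.47 ± 2.58 TPM.

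**Figure D5:**
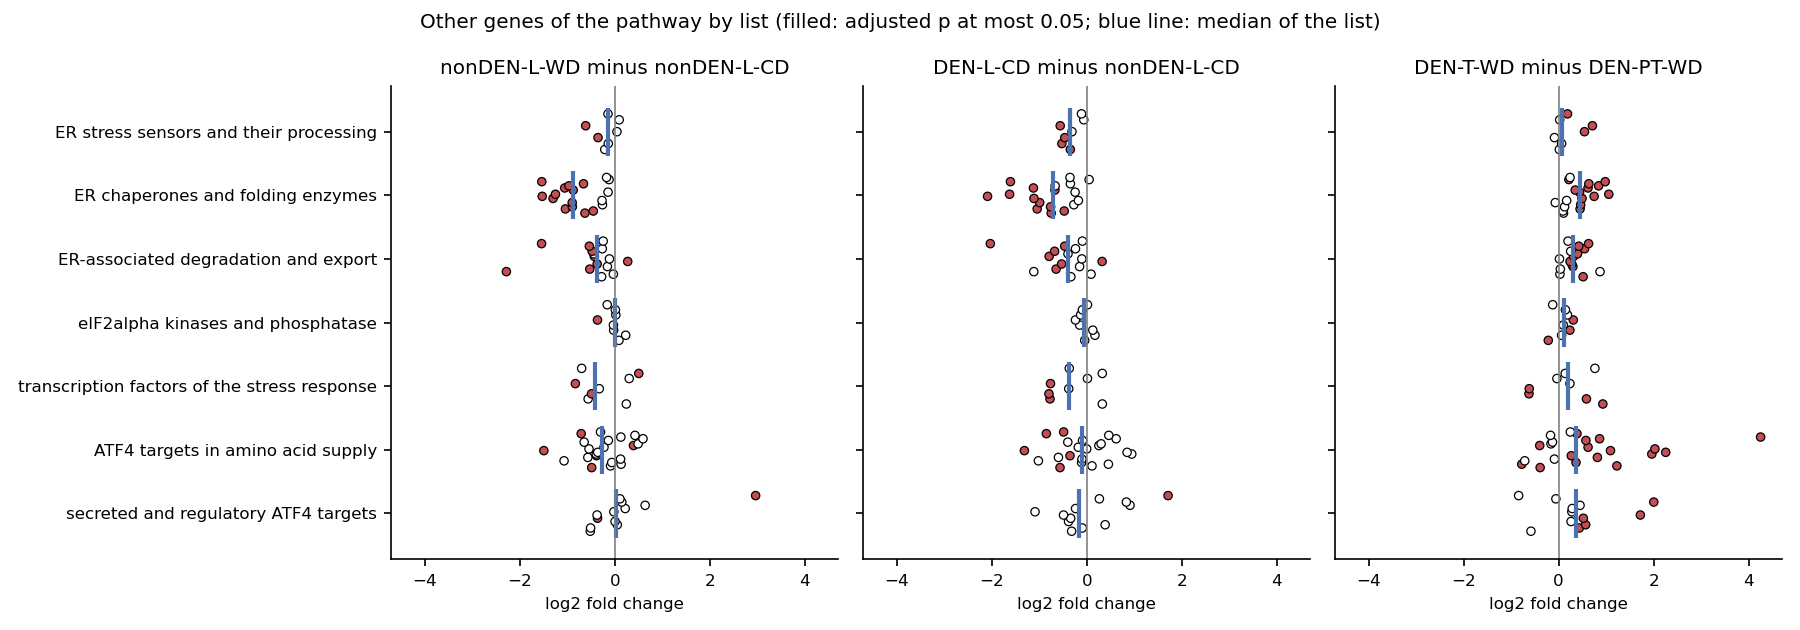
Each point is 1 gene of a list, placed by its log2 fold change in 3 comparisons, filled at an adjusted p of at most 0.05 in edgeR, with a blue line at the median of the list. Chaperones lie to the left in both comparisons against nonDEN-L-CD (medians -0.88 and -0.71) and to the right in tumor against peritumoral liver (0.45). *Slc7a11* is the rightmost point there (4.25), and 1 library set its mean in tumor.

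Whether the difference between diets depended on DEN was tested as an interaction, the difference DEN-PT-WD minus DEN-L-CD less the difference nonDEN-L-WD minus nonDEN-L-CD. *Creld2* had an interaction of 2.14 ± 0.48 on the log2 scale (SE, edgeR adjusted p 0.00788) and *Asns* of 2.99 ± 0.72 (0.0131). For *Creld2* the diet difference was -2.65 without DEN and -0.51 with it, and for *Asns* it was -2.83 and 0.16. The interaction uses the same nonDEN-L-CD samples as the 2 comparisons against that group, so it is not independent of them. In this test 2 of the 10 members passed and were called, against 8.39% and 2.75% of all genes, and 4.65% passed on the positive side. *Xbp1* (0.79 ± 0.26, 0.0587) and *Hspa5* (1.03 ± 0.49, 0.196) did not pass. *Xbp1* passed without nonDEN-L-CD replicate 1 (1.00, 0.0139), nonDEN-L-WD replicate 2 (0.93, 0.0337) or DEN-PT-WD replicate 6 (0.82, 0.0485). It also passed under DESeq2's Wald test (0.0323), in a fit of only these groups (0.0371) and with limma on log2(TPM + 1) (0.0304). DEN-PT-WD was liver beside tumor and DEN-L-CD whole liver, so that difference in sampling and the diet cannot be told apart on the DEN side.

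Of 90 list genes 6 passed the interaction, all positive, and 2 were called, no larger a share than the 8.39% and 2.75% of all genes. The median was 0.26 against 0.03 over all genes. *Psph* (1.30 ± 0.26, SE, edgeR adjusted p 0.00437) and *Syvn1* (1.19 ± 0.37, 0.0484) were called, and *Pdia4* (1.00 ± 0.29, 0.0376), *Cebpg* (0.90 ± 0.23, 0.0189), *Wars* (0.86 ± 0.19, 0.00678) and *Atf6b* (0.41 ± 0.12, 0.0422) passed. The count was 11 without nonDEN-L-CD replicate 1 and 10 without nonDEN-L-WD replicate 4. It was 2 without nonDEN-L-CD replicate 2, and 3 without nonDEN-L-WD replicate 1 or 3, DEN-L-CD replicate 2 or 3, or DEN-PT-WD replicate 4 or 8. Genes passing over all genes were 1311 with all samples. They were 1640 without nonDEN-L-CD replicate 1, 1179 without nonDEN-L-WD replicate 4, 570 without nonDEN-L-CD replicate 2, and 837 to 1118 in the other fits named. *Arntl* had an interaction of 2.35 ± 0.52 (0.00763) in the same samples, and its part in these values was not tested.

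Correlations between members changed with the removal of group means. Across the 25 libraries, Pearson's r of log2 CPM (library-size normalized counts, with a prior count of 2) was 0.89 for *Hspa5* and *Creld2*, 0.88 for *Hspa5* and *Xbp1*, and 0.88 for *Ddit3* and *Trib3*. It was 0.33 for *Hspa5* and *Ddit3*, 0.09 for *Hspa5* and *Trib3*, and 0.02 for *Hspa5* and *Chac1*. After subtracting group means, r was 0.90 for *Hspa5* and *Dnajb9*, 0.81 for *Hspa5* and *Creld2*, 0.74 for *Hspa5* and *Xbp1*, and 0.65 for *Ddit3* and *Trib3*. It was then 0.72 for *Hspa5* and *Ddit3*, 0.45 for *Hspa5* and *Trib3*, and 0.04 for *Hspa5* and *Chac1*. These correlations describe 25 libraries that share groups and normalization, and were given no test.

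The genes most like each member were the 3 with the highest r over the 25 libraries among all tested genes outside the 10. For *Hspa5* they were *Manf* (r 0.99), *Slc35b1* (0.96) and *Hspa13* (0.96), and their r after subtracting group means was 0.92 to 0.97. *Creld2* was nearest to *Kdm4a* (0.96), *Txlna* (0.96) and *Syvn1* (0.95), and *Xbp1* to *Ptbp1* (0.94), *Cldn14* (0.93) and *Arf6* (0.93). *Dnajb9* had *Zfp330* (0.90), *Arfgap3* (0.89) and *Tfg* (0.86). *Trib3* was nearest to *Arhgef2* (0.97), *App* (0.96) and *Itm2c* (0.96), where r fell to 0.74 to 0.76 after subtracting group means, and *Ddit3* to *Ankrd13b* (0.92), *Entpd6* (0.90) and *Dusp4* (0.89), where it fell to 0.81, 0.66 and 0.52. *Atf4* had *Inhba* (0.88), *Rps6-ps4* (0.88) and *Kyat1* (0.86), and *Asns* had *Rpl13a* (0.88), *Rpl15-ps3* (0.86) and *Zfp217* (0.85), with 0.63, 0.66 and 0.51 for those of *Asns* after subtracting group means. The neighbours of *Creld2*, *Xbp1*, *Dnajb9*, *Atf4*, *Herpud1* and *Chac1* then had r from 0.72 to 0.89. *Herpud1* was nearest to *Rbp4* (0.85), *Gm44096* (0.83) and *Etfb* (0.81), and *Chac1* had the least similar neighbours, *Arid5b* (0.79), *Gm21049* (0.78) and *Plk3* (0.74).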

How the data were processed

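RNA of 25 samples was sequenced single-end from mRNA libraries. The authors used FastQC, STAR, RSEM and GRCm38, per the labels and the submitters' processing notes. Versions of STAR and RSEM, the annotation and the use of strand are not given in the sources used here. The deposited expected counts are estimates that were not normalized, and TPM and FPKM are the authors' length-corrected values, of which FPKM was not used. Rounded expected counts entered the quasi-likelihood test of edgeR 4.0.16 under R 4.3.3, after TMM scaling and a low-count filter (filterByExpr, groups given, minimum 10), in 1 fit of 5 groups with Benjamini-Hochberg adjustment over 15625 genes. TPM gave levels and TMM-normalized counts gave fold changes, so a ratio of TPM can differ from the fitted fold. Alternatives were DESeq2 1.42.0 (Wald test, or its size factors in edgeR), no filter, fits of only the groups compared, a replicate block, limma 3.58.1 on log2(TPM + 1), and each replicate left out. Motifs were searched in RefSeq promoters (GRCm38.p6), matched by symbol for all 10 members and for 73 of 91 list genes. Tables were made in Python 3.11.15 and figures with Matplotlib 3.10.9. The tests were checked on simulated counts.

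The 10 genes, the 91 genes of the 7 pathway lists, the marker lists and the rules were chosen with earlier results of these data known. Named genes of a list were the called ones with the largest change (up to 4), or else up to 2 that passed with the smallest adjusted p. *Cebpb* and *Eif4ebp1* on diet, *Bcl2l11*, *Sesn2*, *Vegfa*, *Cth*, *Shmt2*, *Aars* in tumor, *Atf5*, *Cebpd* and *Wars* were named after their values were seen.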

Additional observations from a re-analysis of the deposited data

Results flagged for a closer look

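In 8 of 40 combinations of member and group with 4 to 10 samples, the highest library stood apart from the others by more than Dixon's 95% critical value for the gap relative to the range, which chance gives in about 1 in 20. Of these, 3 were in DEN-L-CD replicate 4, with *Herpud1* at 265.9 TPM (others 253.3 to 255.1), *Ddit3* at 9.36 TPM (others 5.76 to 6.03) and *Trib3* at 4.86 TPM (others 1.76 to 2.01). *Creld2* was 32.84 TPM in DEN-PT-WD replicate 3 (others 14.33 to 21.83) and 63.44 TPM in DEN-T-WD replicate 2 (others 34.31 to 45.04). *Xbp1* was 145.0 TPM in nonDEN-L-WD replicate 2 (others 90.79 to 93.08), *Chac1* was 6.77 TPM in DEN-T-WD replicate 1 (others 1.79 to 3.17), and *Asns* was 10.11 TPM in DEN-PT-WD replicate 7 (others 1.79 to 4.72).

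The interaction in edgeR passed for *Creld2* (2.14 on the log2 scale) and *Asns* (2.99), so the difference between the Western and control diet groups was not the same in DEN as in nonDEN mice. The same nonDEN-L-CD samples entered the comparisons against that group, so the interaction is not independent of them. On the DEN side the diet and the sampling of peritumoral against whole liver cannot be told apart.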

How the results depend on the processing

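No member that passed changed sign in any alternative, while signs of values that did not pass turned in some (*Dnajb9* ran from -0.62 to 0.40 in nonDEN-L-WD against nonDEN-L-CD). Of the recomputed member log2 fold changes, 1128 kept their side of the threshold, 41 lost it and 21 gained it. *Creld2* and *Asns* kept their interaction in every alternative. In DEN-PT-WD against nonDEN-L-WD, members called (2) became 1 with no filter, only the groups compared, limma on log2(TPM + 1) or the replicate block, and 0 without pancreas-rich or without tumor-marker-rich libraries. Members passed (3) became 1 with no filter, the replicate block or without tumor-marker-rich libraries, and 0 without pancreas-rich ones. Without tumor-marker-rich libraries the 1 that passed was *Creld2* (-0.98, edgeR adjusted p 0.0493), which was not among the 3. Pathway genes passed (16) became 8 with the replicate block, 2 without pancreas-rich and 9 without tumor-marker-rich libraries. Genes passing over all genes (1933) then became 1119, 336 and 938. In DEN-PT-WD against DEN-L-CD, members passed (0) became 1 with DESeq2, only the groups compared, limma or the replicate block, and members called (0) became 1 with limma or the replicate block. Pathway genes passed (6) became 13 with DESeq2, 3 with no filter, 11 with only the groups compared, 27 with limma and 2 without tumor-marker-rich libraries. Genes passing over all genes (1650) then became 2187, 1060, 1998, 6108 and 853. In tumor against peritumoral liver members called (5) became 3 without pancreas-rich libraries. Pathway genes passing the interaction (6) became 15 with DESeq2, 3 with no filter, 13 with only the groups compared, 13 with the replicate block, 16 with limma, and 3 without either set of libraries. Genes passing it over all genes (1311) became 1718, 817, 1594, 1041 and 1214. They became 1059 without pancreas-rich and 932 without tumor-marker-rich libraries. The cause was not tested. Both sets of libraries were chosen after seeing the data. With limma on TPM the median log2 fold change of all genes was 0.16, 0.23 and 0.15 in DEN-PT-WD against nonDEN-L-WD, against DEN-L-CD and in the interaction, where edgeR gave 0.0028, 0.02 and 0.03. With 1 replicate left out, members called ranged 2 to 4, 1 to 3, 0 to 2, 0 to 1, 3 to 6 and 2 to 2 over the 5 comparisons in the order of the text and the interaction, members passed 3 to 4, 2 to 3, 0 to 3, 0 to 1, 8 to 9 and 2 to 3, and pathway genes passed 21 to 38, 20 to 34, 3 to 18, 1 to 10, 45 to 58 and 2 to 11. Genes called over all genes ranged from 134 to 1413. Whether equal replicate numbers mark shared mice is not given in the labels. Correlations of deviations between equal numbers ran from -0.23 to 0.388 and were not over 0.1 in every pair of any comparison, so the block was kept as an alternative. All 3 samples matched their own number best in the comparison of both control-diet groups, and 1 of 6 in tumor against peritumoral liver. With the replicate block *Asns* passed between both control-diet groups (-1.46, edgeR adjusted p 0.0284), as did *Trib3* between both DEN liver groups (1.40, 0.0267) and *Xbp1* in the interaction (0.93, 0.0188), while *Asns* (1.44, 0.0565) and *Herpud1* (-0.43, 0.221) did not in DEN-PT-WD against nonDEN-L-WD. The block moved no other member across the threshold.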
